A study of Mus musculus with 8 samples.

Results

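The NRF2-KEAP1 antioxidant response was followed through 10 genes, Nfe2l2, Keap1, Nqo1, Hmox1, Gclc, Gclm, Slc7a11, Txnrd1, Srxn1 and Gsr, in RNA-seq of cultured LLC cells. The 10 genes were chosen by name as the core of this pathway and were matched by symbol to Ensembl identifiers, 10 of the 55487 genes counted. All 10 were among the 14228 genes that passed the expression filter. LLC, the Lewis lung carcinoma line, is a mouse lung cancer line. The study compared 4 libraries of wild-type LLC cells with 4 libraries of Ago2 knock-out cells, called ΔAgo2, to ask which transcripts differ in level with and without Ago2, the RNA-binding effector of microRNA silencing. All cells grew in DMEM with fetal bovine serum and penicillin-streptomycin, and all 8 libraries carry the same batch label. The ΔAgo2 cells were made with a lentivirus that carries Cas9 and 1 guide against Ago2, selected with puromycin and sorted as single cells, so the line is clonal and differences of a clone cannot be told apart from those of the genotype. The sources used here describe neither a control vector for the wild-type cells nor which clone was sequenced.

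NRF2, encoded by Nfe2l2, is a transcription factor that switches on genes against oxidants and electrophiles. In resting cells KEAP1, the adaptor of a CUL3 ubiquitin ligase, binds NRF2 and has it degraded, and electrophiles that modify KEAP1 cysteines let NRF2 accumulate. NRF2 then pairs with small MAF proteins on antioxidant response elements and raises the genes of glutathione synthesis, the thioredoxin system, quinone reduction and heme breakdown, which is why these target genes are read as its output, and in lung cancer the pathway is often active. NRF2 is regulated mainly through protein stability, which RNA-seq does not measure.

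The core of the antioxidant response element, TGACNNNGC, was searched on both strands of RefSeq promoter windows, 250 bases before to 50 after a gene's start in GRCm38.p6, because all 8 target genes are known for regulation through this element. Windows were given for 7 of the 10 genes, and Hmox1, Gclc and Gsr had no entry. The core stood in 4 of the 9 windows of these 7 genes, 1 for each of 4 genes, and in 12.4% of all 32851 promoter windows. The 4 matches are printed with 10 bases on each side, 5′ to 3′ on the minus strand of GRCm38.p6, with the core in capitals:
Nfe2l2, chr2:75704885-75704913: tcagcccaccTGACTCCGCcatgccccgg
Gclm, chr3:122245413-122245441: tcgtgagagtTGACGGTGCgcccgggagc
Txnrd1, chr10:82859104-82859132: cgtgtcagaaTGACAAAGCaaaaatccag
Srxn1, chr2:152105542-152105570: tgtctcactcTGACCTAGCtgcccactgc
The match lies from position -240 to -232 relative to the start in Nfe2l2, from -134 to -126 in Gclm and from -92 to -84 in 1 of the windows of Txnrd1. In Srxn1 it lies after the start, from position 28 to 36. No match was found in the windows of Nqo1, Keap1 and Slc7a11, which says only that these letters are not in this stretch.

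Library totals were 40740643 to 68530912 counts for the wild-type and 39628101 to 57595675 for the ΔAgo2 genotype, so counting error is small for all 10 genes, whose lowest count was 78. CPM values are counts scaled to the library size with edgeR's TMM factors, and TPM values are also scaled to gene length. Ago2 itself was at 67.3, 75.2, 127 and 18.9 TPM in wild-type replicates 1 to 4 and at 104.5, 75.7, 98.4 and 79.6 TPM in ΔAgo2 replicates 1 to 4. Its level thus did not tell the genotypes apart (log2 fold change 0.21, adjusted p = 0.908, edgeR's quasi-likelihood test). A small edit by Cas9 need not lower a transcript, so these counts do not check the labels, and each library is called by its label throughout. For the knock-out itself the paper refers to a Western blot of Ago2 protein in wild-type and ΔAgo2 LLC cells. Wild-type replicate 4 stood apart, with a median Spearman correlation of 0.864 with its own group, against 0.948 to 0.986 for the other 7 libraries. Its departure from the mean of all other libraries, of both genotypes, rose with GC content across genes (Spearman rho 0.725 over genes, which are not independent replicates). Markers of lung epithelium (0 of 5 at a mean of at least 1 CPM) and endothelium (0 of 4) were near 0. The mesenchymal markers Vim, Fn1, Acta2 and Col1a1 reached that mean, and Col1a2 did not. Among the epithelial markers Krt8, Krt18 and Krt19 reached it, while Epcam and Cdh1 did not. Of 5 leukocyte markers only Cd68 reached a mean of 1 CPM, and their sum was at most 38.3 CPM in any library.

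Compared per transcript length, in TPM, the target genes spanned the range from the most abundant transcripts to the middle of the list. Txnrd1 had the highest mean in wild-type cells, 418.5 ± 429 TPM (SD, n = 4), within the top 2.12% of the 14228 genes tested. It was followed by Nqo1 at 312 ± 232, Srxn1 at 289.5 ± 215 and Nfe2l2 at 261 ± 106 TPM. Gsr at 120.0 ± 40.8, Hmox1 at 106 ± 107 and Gclc at 104 ± 64.4 TPM formed the middle, and Gclm at 59.7 ± 55.7, Keap1 at 53.5 ± 23.9 and Slc7a11 at 17.9 ± 21.8 TPM the lower end. Slc7a11 ranked 6823 among the genes tested, near the median gene. In 7 of the 9 neighbouring pairs of this order the means differed by less than the larger SD, and the 2 exceptions were the steps from Nfe2l2 to Gsr and from Keap1 to Slc7a11. In ΔAgo2 cells Srxn1 led with 368 ± 193 TPM, followed by Txnrd1 with 285 ± 116, Nfe2l2 with 270 ± 12.2 and Nqo1 with 198.5 ± 120 TPM. The steps larger than the larger SD were there those from Gsr (147 ± 29.3 TPM) to Gclc (104 ± 34.0 TPM) and from Gclc to Keap1 (53.8 ± 3.46 TPM). The lowest means in ΔAgo2 cells were those of Hmox1 at 51.1 ± 25.9, Gclm at 38.0 ± 13.3 and Slc7a11 at 27.4 ± 15.5 TPM.

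**Figure D1:**
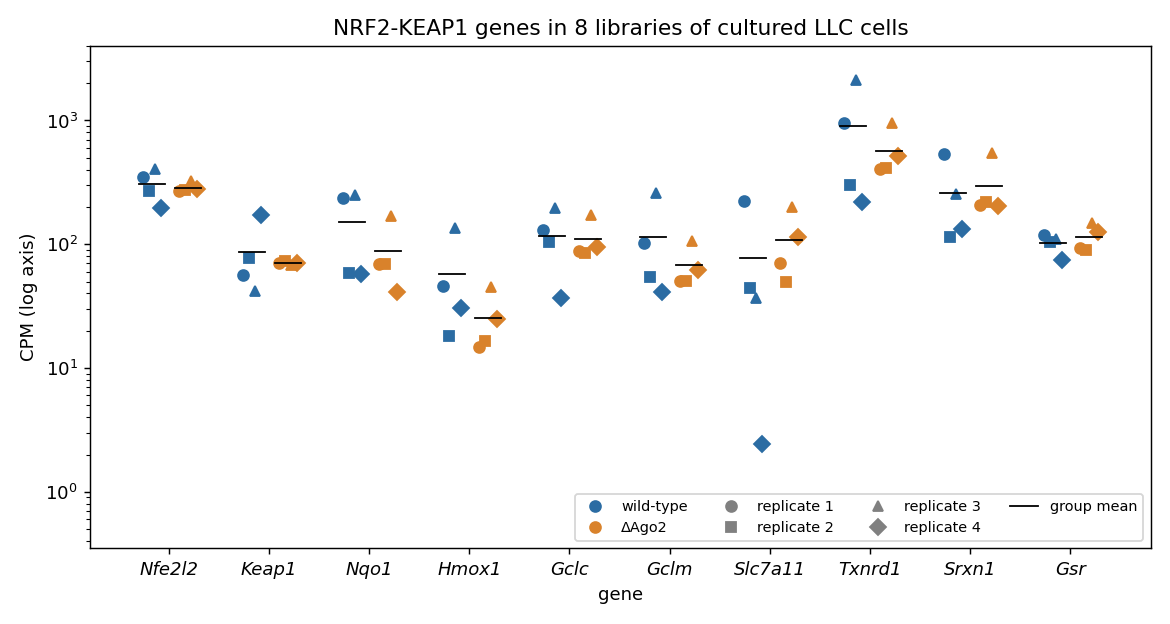
Level of the 10 NRF2-KEAP1 genes in each library, in CPM on a log axis, with wild-type libraries in blue, ΔAgo2 libraries in orange, a symbol for each replicate number and a line at each group mean. The genotypes overlap for every gene, and wild-type replicate 4 sits at 2.42 CPM for Slc7a11, far below the other 7 libraries.

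The 2 regulators did not pass the test between genotypes. Nfe2l2 (ENSMUSG00000015839.6, mm10 chromosome 2, 75675513 to 75704641, minus strand) was at 349, 268, 408 and 195 CPM in wild-type replicates 1 to 4 and at 270, 274, 323 and 282 CPM in ΔAgo2 replicates 1 to 4. The 4 ΔAgo2 libraries all lay inside the wild-type range. The log2 fold change, given as ΔAgo2 over wild-type throughout, was -0.09 (standard error 0.28, adjusted p = 0.948, edgeR's quasi-likelihood test), and its 95% interval allowed a fold from 0.611 to 1.45. In bulk RNA a difference, or its absence, cannot be assigned to the number of expressing cells or to the RNA per cell, which cannot be told apart. Keap1 (ENSMUSG00000003308.15, chromosome 9, 21229730 to 21239361, minus strand), the negative regulator, was at 56.7, 77.0, 42.1 and 173 CPM in wild-type replicates 1 to 4. In ΔAgo2 replicates 1 to 4 it was at 70.5, 72.8, 68.4 and 70.4 CPM. Keap1 was thus nearly the same in the 4 ΔAgo2 libraries, which differed by at most 1.06-fold, while wild-type replicate 4 stood above all others. The estimate of -0.31 on the log2 scale (standard error 0.41, adjusted p = 0.858, edgeR's quasi-likelihood test, interval from 0.432-fold to 1.51-fold) became 0.27 without wild-type replicate 4. The Nfe2l2 estimate turned to 0.09 without wild-type replicate 3. Exons of Keap1 overlap those of Gm16754 on the opposite strand, and the strand setting of the counting is not given in the sources used here.

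Glutathione synthesis starts with cystine import by SLC7A11, the light chain of the cystine-glutamate exchanger, and with glutamate-cysteine ligase, made of the catalytic subunit GCLC and the modifier subunit GCLM. Slc7a11 (ENSMUSG00000027737.10, chromosome 3, 49892526 to 50443614, minus strand) was at 224, 44.4, 37.1 and 2.42 CPM in wild-type replicates 1 to 4 and at 70.0, 49.7, 198.9 and 115 CPM in ΔAgo2 replicates 1 to 4. The wild-type libraries spanned 92.5-fold and enclosed all 4 ΔAgo2 libraries, which spanned 4.00-fold. The log2 fold change of 0.495 had a standard error of 0.945 (adjusted p = 0.910, edgeR's quasi-likelihood test) and an interval from 0.330-fold to 6.02-fold, the widest of the 10 genes. Without wild-type replicate 1, the highest wild-type library, it was 1.96 (unadjusted p = 0.0486, adjusted p = 0.596, edgeR's quasi-likelihood test), and leaving out any other library gave 0.03 to 0.74. Gclc (ENSMUSG00000032350.9, chromosome 9, 77754535 to 77794485, plus strand) was at 129.7, 104.5, 197 and 36.7 CPM in wild-type replicates 1 to 4 and at 88.5, 85.2, 172 and 95.5 CPM in ΔAgo2 replicates 1 to 4. Gclm (ENSMUSG00000028124.15, chromosome 3, 122245557 to 122270732, plus strand) was at 103, 54.0, 258 and 41.2 CPM in wild-type replicates 1 to 4 and at 50.6, 50.7, 107 and 62.1 CPM in ΔAgo2 replicates 1 to 4. For both subunits wild-type replicate 3 was the highest library, wild-type replicate 4 the lowest and ΔAgo2 replicate 3 the highest of its genotype. Gclc had a log2 fold change of -0.08 (standard error 0.46, adjusted p = 0.973, edgeR's quasi-likelihood test) and Gclm one of -0.75 (standard error 0.55, adjusted p = 0.758). Without wild-type replicate 3 these became 0.29 and 0.04, and without ΔAgo2 replicate 2 that of Gclc became 0.03. Exons of Gclm overlap those of Gm17494 and Gm6061, so some of its reads may be shared.

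GSR, glutathione reductase, returns oxidized glutathione to its reduced form at the cost of NADPH. Gsr (ENSMUSG00000031584.16, chromosome 8, 33652523 to 33698163, plus strand) varied least among the target genes. It was at 118.5, 105, 111 and 74.0 CPM in wild-type replicates 1 to 4 and at 92.9, 90.1, 148 and 126 CPM in ΔAgo2 replicates 1 to 4. The highest library was 1.60 times the lowest in wild-type and 1.64 times in ΔAgo2 cells, and the groups overlapped. For Gsr the log2 fold change of 0.16 had a standard error of 0.27 (adjusted p = 0.899, edgeR's quasi-likelihood test) and an interval from 0.733-fold to 1.70-fold, and it was -9.26e-05 without ΔAgo2 replicate 3.

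TXNRD1, thioredoxin reductase of the cytosol, keeps thioredoxin reduced, and SRXN1, sulfiredoxin, repairs hyperoxidized peroxiredoxins. Txnrd1 (ENSMUSG00000020250.10, chromosome 10, 82833951 to 82897712, plus strand) was at 956, 299, 2119 and 219 CPM in wild-type replicates 1 to 4 and at 404, 412, 954 and 515 CPM in ΔAgo2 replicates 1 to 4. Wild-type replicate 3 was 9.66 times wild-type replicate 4, and ΔAgo2 replicate 3 reached the level of wild-type replicate 1. Srxn1 (ENSMUSG00000032802.8, chromosome 2, 152105516 to 152111376, plus strand) was at 533.5, 115, 256 and 132 CPM in wild-type replicates 1 to 4. In ΔAgo2 replicates 1 to 4 it was at 209, 220.0, 548 and 202 CPM. ΔAgo2 replicate 3 and wild-type replicate 1 were the 2 highest libraries for Srxn1. The log2 fold change was -0.65 for Txnrd1 (standard error 0.65, adjusted p = 0.818, edgeR's quasi-likelihood test) and 0.19 for Srxn1 (standard error 0.53, adjusted p = 0.942). Leaving out wild-type replicate 3 turned Txnrd1 to 0.22. Srxn1 turned to -0.07, -0.01 and -0.30 when wild-type replicate 2, wild-type replicate 4 or ΔAgo2 replicate 3 was left out, and was 0.82 without wild-type replicate 1.

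NQO1 reduces quinones without forming semiquinone radicals and is a common readout of NRF2, and HMOX1, heme oxygenase, breaks heme into biliverdin, iron and carbon monoxide. Nqo1 (ENSMUSG00000003849.8, chromosome 8, 107388225 to 107403206, minus strand) was at 235, 58.7, 250.1 and 57.2 CPM in wild-type replicates 1 to 4 and at 68.9, 68.9, 170.5 and 41.4 CPM in ΔAgo2 replicates 1 to 4. In wild-type cells the 4 libraries thus fell into a high and a low pair, about 4-fold apart, and in ΔAgo2 cells replicate 3 lay between these pairs. Hmox1 (ENSMUSG00000005413.8, chromosome 8, 75093621 to 75100589, plus strand) was at 46.4, 18.2, 135 and 30.7 CPM in wild-type replicates 1 to 4 and at 14.8, 16.7, 45.5 and 24.8 CPM in ΔAgo2 replicates 1 to 4. The mean of Hmox1 was 57.5 ± 52.8 CPM for wild-type and 25.4 ± 14.1 CPM for ΔAgo2 libraries (SD, n = 4), but 2 of the 4 ΔAgo2 libraries lay inside the wild-type range and the other 2 just below it. Hmox1 had the largest log2 fold change of the 10 genes, -1.18 (standard error 0.61, unadjusted p = 0.0802, adjusted p = 0.711, edgeR's quasi-likelihood test) and an interval from 0.174-fold to 1.12-fold. For Nqo1 it was -0.78 (standard error 0.59, adjusted p = 0.764, edgeR's quasi-likelihood test). Without wild-type replicate 3 these estimates shrank to -0.32 and -0.42.

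Over the pathway, then, 0 of the 10 genes passed an adjusted p under 0.05, against 0.295% of all genes tested (42 of 14228, 11 higher and 31 lower in ΔAgo2 cells). At an unadjusted p under 0.05, 0 of 10 passed against 7.34% of all genes, and 0 of 10 had no overlap between the genotypes in CPM against 6.07%. Limma's sample weights gave 3 of 10 an unadjusted p under 0.05, namely Hmox1, Nqo1 and Gclm. All 3 had a lower estimate in ΔAgo2 cells, with adjusted p of 0.175, 0.202 and 0.238 from limma. That fit called 257 of the 14228 genes at an adjusted p under 0.05, where edgeR called 42. Its share of all genes at an unadjusted p under 0.05 was not counted, so the 3 genes have no background here. DESeq2 called 0 of the 10 as well, with a lowest adjusted p of 0.536, and the lowest adjusted p in any setting tried was 0.175, for Hmox1 with limma's sample weights. The 10 log2 fold changes had a median of -0.20, with 3 above and 7 below 0, beside a median of -0.11 over all genes tested. This split depended on the scale, since with limma on log2(TPM + 1) the median over all genes was 0.15 and 7 of the 10 genes lay above 0, Nfe2l2, Keap1, Gclc and Txnrd1 having turned. It was also 7 above 0 without wild-type replicate 3. Their intervals were wide, and for 8 of the 10 genes they reached beyond a 2-fold change in at least 1 direction, so a p that missed the threshold does not show that the genotypes were alike. The number of genes called in the whole table moved between 1 without ΔAgo2 replicate 1 and 113 without wild-type replicate 4, while the count among the 10 genes was 0 in each of these fits. The labels name the libraries biological replicates without saying whether they came from separate cultures, so these p-values measure the spread between libraries, part of which may be technical.

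**Figure D2:**
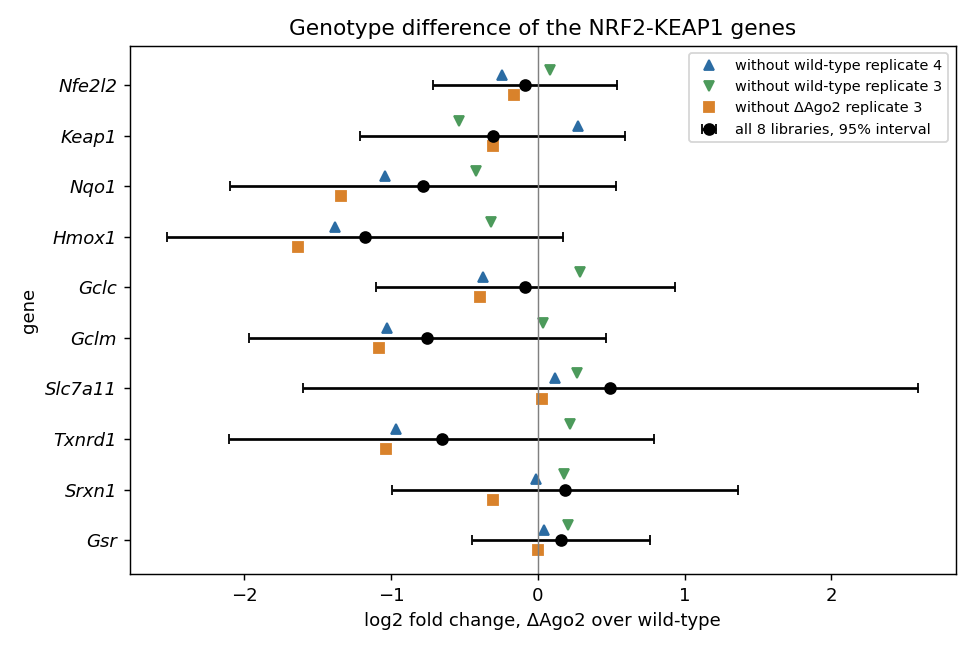
Log2 fold change of each gene, ΔAgo2 over wild-type, from edgeR's quasi-likelihood fit with its 95% interval in black, and the estimate without wild-type replicate 4, without wild-type replicate 3 and without ΔAgo2 replicate 3 as coloured symbols. Every interval crosses 0, from Hmox1 at -1.18 to Slc7a11 at 0.495, and leaving out 1 library moves Txnrd1 between -1.03 and 0.22.

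For each of the 10 genes the wild-type libraries spanned a larger fold, from 1.60 for Gsr to 92.5 for Slc7a11, than the fitted difference between genotypes. The share of all genes for which this holds was not counted, so it is not read as particular to these 10. The target genes shared much of their pattern across libraries. These features were chosen after the values were seen and are given as a description. Each of the 8 target genes, and Nfe2l2, had its highest ΔAgo2 value in replicate 3, 9 of 10 genes in all, against 30.2% of all genes tested. For Nqo1, Hmox1, Gclc, Gclm, Slc7a11, Txnrd1 and Srxn1, 7 of 10 genes, ΔAgo2 replicate 3 was over 1.5 times the next ΔAgo2 library, against 3.56% of all genes. Keap1 was the exception, with its lowest ΔAgo2 value in that library. For 7 of 10 genes, namely Nfe2l2, Nqo1, Hmox1, Gclc, Gclm, Txnrd1 and Srxn1, the 3 highest of the 8 libraries were wild-type replicates 1 and 3 and ΔAgo2 replicate 3, against 7.33% of all genes. Wild-type replicate 4 was the lowest wild-type library for 7 of 10 genes, against 40.2% of all genes. The genes of this pathway are known to be co-regulated, so the 10 genes are not independent of each other.

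Expressed as deviation from each gene's mean on the log2 CPM scale, the median of the 8 target genes was 0.65 in wild-type replicate 1, -0.58 in replicate 2, 1.16 in replicate 3 and -0.85 in replicate 4. In ΔAgo2 replicates 1 to 4 it was -0.34, -0.36, 0.745 and -0.19. All 8 target genes were above their own mean in wild-type replicate 1 and in ΔAgo2 replicate 3, 7 of 8 were in wild-type replicate 3, and 0 of 8 were in wild-type replicate 4. Nfe2l2 itself moved less than the median of the target genes, by 0.49 in wild-type replicate 3 and 0.16 in ΔAgo2 replicate 3. In wild-type replicate 3, though, Gsr (0.07) and Srxn1 (0.10) moved less than Nfe2l2. The median SD of log2 CPM over the 8 target genes was 1.18 in wild-type cells, beside 0.65 over all genes tested, and leaving out wild-type replicate 4 changed these to 1.15 and 0.36. In ΔAgo2 cells it was 0.635 beside 0.20, and 0.23 beside 0.16 without ΔAgo2 replicate 3. The spread of the target genes in ΔAgo2 cells thus came mostly from 1 library. ΔAgo2 replicates 1 and 2 resembled each other more than other pairs did (chi-square per gene 22.8, against 89.0 to 126 for the other ΔAgo2 pairs), yet differed beyond sampling noise, in Slc7a11 among others, and were counted as 2 samples. What set this pattern was not tested.

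**Figure D3:**
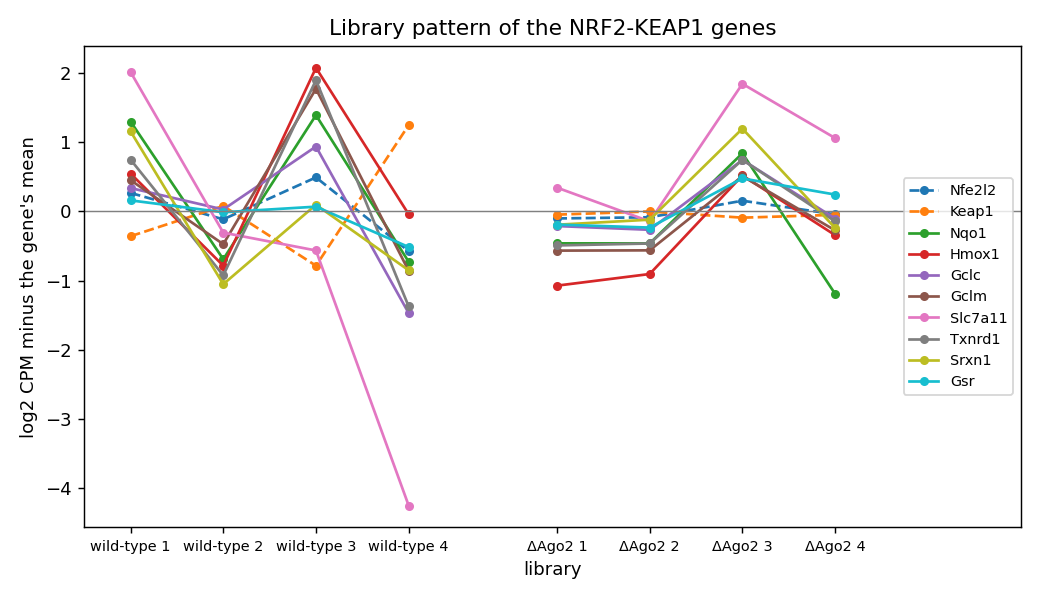
Deviation of each gene from its own mean over the 8 libraries, in log2 CPM, with dashed lines for the regulators Nfe2l2 and Keap1 and solid lines for the 8 target genes. Lines only join the points of 1 gene, since replicates have no order. Wild-type replicates 1 and 3 and ΔAgo2 replicate 3 lie high for the target genes, with medians of 0.65, 1.16 and 0.745, and wild-type replicate 4 lies below 0 for all but Keap1.

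Wild-type replicate 4 was set beside the GC content of the transcripts, since its departure from the mean of all other libraries rose with GC content across genes. Keap1, whose longest transcript has 58.0% GC, the highest of the 10 genes, was higher there than the mean of wild-type replicates 1 to 3 by 1.56 on the log2 CPM scale. Slc7a11, with 40.7% the lowest, was lower by -5.13 on that scale. Between them the order did not follow GC content closely. Gclm at 42.1% GC differed by -1.73, Txnrd1 at 49.7% by -2.36 and Gsr at 50.1% by -0.59. Without wild-type replicate 4 the log2 fold changes of the 10 genes had a median of -0.31, beside -0.03 over all genes tested. A correction of every library for GC content gave -0.18, beside -0.09 over all genes tested. The part of GC content in the values of single genes was not tested.

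**Figure D4:**
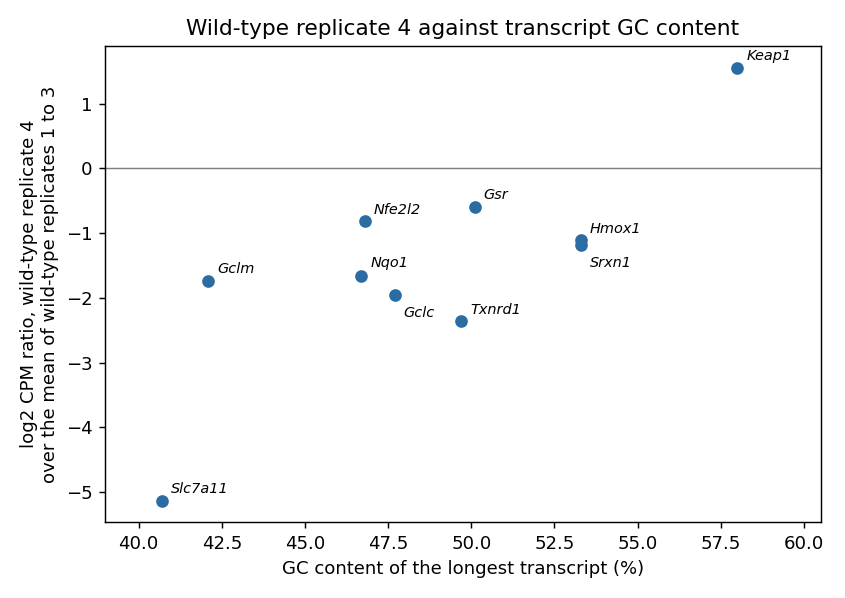
Log2 ratio of CPM in wild-type replicate 4 over the mean of wild-type replicates 1 to 3, against the GC content of the longest annotated transcript in percent, 1 point for each gene. Keap1 at 58.0% GC is the only gene above 0, at 1.56, and Slc7a11 at 40.7% GC lies lowest, at -5.13.

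Ratios between partners were compared within libraries, in TPM. The ratio of Nfe2l2 to Keap1, regulator over inhibitor, was 7.62, 4.30, 11.99 and 1.39 in wild-type replicates 1 to 4 and 4.74, 4.65, 5.84 and 4.95 in ΔAgo2 replicates 1 to 4. It was thus even across ΔAgo2 cells and uneven across wild-type cells, and the mean log2 ratio differed by 0.055 between genotypes (exact permutation test, two-sided, p = 0.914). Without wild-type replicate 4 this difference was -0.545, it was -0.000295 when wild-type replicate 2 was left out, and -0.02 when ΔAgo2 replicate 3 was. The ratio of Gclc to Gclm, catalytic over modifier subunit, was 2.10, 3.23, 1.27 and 1.49 in wild-type replicates 1 to 4 and 2.92, 2.81, 2.68 and 2.57 in ΔAgo2 replicates 1 to 4. Wild-type replicate 2 lay above all ΔAgo2 libraries and the other 3 wild-type libraries below them, and the difference of 0.53 in mean log2 ratio did not pass the test (exact permutation test, two-sided, p = 0.143, adjusted p = 0.429 over the 3 ratios). For Slc7a11 over Slc3a2, which encodes the heavy chain that carries SLC7A11 to the membrane, the ratio spanned 0.00140 to 0.228 in the wild-type libraries and 0.0458 to 0.119 in the ΔAgo2 libraries (difference of mean log2 ratio 1.69, exact permutation test, two-sided, p = 0.343, adjusted p = 0.514). That difference was 0.40 without wild-type replicate 4, which had 78 counts of Slc7a11, and 2.85 without wild-type replicate 1. The smallest p that 4 libraries against 4 allow in this test is 0.0286.

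The wider pathway was read from 8 lists of 116 further genes, of which 103 were tested. With edgeR's quasi-likelihood test 0 of the 103 passed an adjusted p under 0.05. The unadjusted p was under 0.05 for 2 genes with a higher and 6 with a lower level in ΔAgo2 cells, 8 of 103 beside 7.34% of all genes. DESeq2, which gave a value for 101 of the 103, called 2, both higher. Beside these it called 118 higher and 179 lower among the 14097 tested genes with a DESeq2 value. Limma's sample weights called 0 list genes, beside 104 higher and 153 lower of all 14228 genes. The genotypes had no overlap in CPM for 5 of the 103, 2 higher and 3 lower in ΔAgo2 cells, beside 6.07% of all genes. The log2 fold change was above 0 for 23 and below 0 for 80 of the 103 genes, with a median of -0.215, beside 5864 above and 8364 below 0 and a median of -0.11 over all genes. Without wild-type replicate 4 the medians were -0.14 and -0.03. With limma on log2(TPM + 1) 57 list genes lay above and 46 below 0, with a median of 0.085, again under that of all genes, 0.15. The core of the antioxidant response element stood in a promoter window of 17 of the list genes that have an entry, 16.5%, beside 14.0% of all genes.

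The regulators and partners of NRF2 (14 of 14 tested) had a median log2 fold change of -0.05, and of -0.11 without wild-type replicate 4, with 0 genes at an unadjusted p under 0.05. Sqstm1, which encodes p62, a protein that takes KEAP1 to autophagy, was at 847, 521, 1634 and 1261 CPM in wild-type replicates 1 to 4 and at 573, 629, 1089 and 857 CPM in ΔAgo2 replicates 1 to 4. Mafk, a small MAF partner of NRF2, lay between 34.7 and 104 CPM in the wild-type libraries, a range that held all ΔAgo2 libraries (46.2 to 57.6 CPM). Cul1 and Skp1, which encode components of a ligase for NRF2 other than the CUL3 ligase of KEAP1, had log2 fold changes of 0.50 and 0.29. Their adjusted p was 0.770 and 0.810 (edgeR's quasi-likelihood test). Bach1, a repressor that competes for the response element, had a log2 fold change of -0.04 and ranged from 6.64 CPM in wild-type replicate 4 to 129.7 CPM in wild-type replicate 3, and it was named after its values were seen. Btrc, which encodes an adaptor of the other ligase for NRF2, was the only 1 of the 14 without overlap, beside 6.07% of all genes, its 4 wild-type values (30.7 to 39.9 CPM) all lying above its ΔAgo2 values (27.6 to 30.2 CPM) (adjusted p = 0.820, edgeR's quasi-likelihood test), and was also named afterwards.

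Glutathione synthesis and use (16 of 18 genes tested, median log2 fold change -0.21, and -0.09 without wild-type replicate 4) had 0 genes at an unadjusted p under 0.05. Gss, glutathione synthetase, was at 13.5, 17.7, 43.4 and 46.2 CPM in wild-type replicates 1 to 4 and at 16.7, 18.2, 15.7 and 18.8 CPM in ΔAgo2 replicates 1 to 4, with a log2 fold change of -0.80 (adjusted p = 0.709, edgeR's quasi-likelihood test). Gpx4, the peroxidase that reduces lipid hydroperoxides, was at 901 CPM in wild-type replicate 4 and between 142 and 208 CPM in the other 7 libraries, so its log2 fold change of -0.96 became 0.135 without that library. Gpx4 has 60.2% GC. Of the genes with a positive estimate Ggt5 and Gpx8 came first by p, at log2 fold changes of 1.01 and 0.28 (adjusted p = 0.749 and 0.843, edgeR's quasi-likelihood test). Ggt5 was at 1.79 without wild-type replicate 1.

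Among glutathione S-transferases (17 of 23 tested, median -0.48, and -0.19 without wild-type replicate 4), the unadjusted p was under 0.05 for 1 gene above and 2 genes below 0. Gstk1, a kappa-class enzyme of mitochondria and peroxisomes, was at 0.366, 0.0142, 0.208 and 0.0311 CPM in wild-type replicates 1 to 4 and at 1.64, 2.57, 1.69 and 0.719 CPM in ΔAgo2 replicates 1 to 4. The groups did not overlap, but the gene was scarce, with at most 108 counts in a library, and its log2 fold change of 3.38 (standard error 0.83) had an adjusted p of 0.218 with edgeR's quasi-likelihood test and of 0.000665 with DESeq2. Gsta4, which conjugates the lipid aldehyde 4-hydroxynonenal, spanned 16.3 to 86.7 CPM across wild-type libraries and 7.78 to 25.5 CPM across ΔAgo2 libraries, a log2 fold change of -1.39 (adjusted p = 0.547, edgeR's quasi-likelihood test). Mgst3, a membrane-bound enzyme of this class, was at 168 CPM in wild-type replicate 4, and its log2 fold change of -1.93 (adjusted p = 0.6125, edgeR's quasi-likelihood test) became -0.85 without that library. Gsto2 had the second smallest p among the higher genes, with a log2 fold change of 0.51. Gsto1 and Gstm7, the other list genes lower in every ΔAgo2 library than in any wild-type library, were named after their values were seen. Their log2 fold changes of -0.61 and -1.31 (adjusted p = 0.709 and 0.678, edgeR's quasi-likelihood test) became -0.245 and -0.74 without wild-type replicate 4. Members of the alpha and mu classes share sequence, so their counts are uncertain where reads fit more than 1 gene.

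In the thioredoxin and peroxiredoxin list (14 of 14 tested, median -0.15, and 0.02 without wild-type replicate 4), 0 genes reached an unadjusted p under 0.05. Txn1, thioredoxin of the cytosol and the substrate of TXNRD1, was even across libraries, between 390.1 and 547 CPM for wild-type and between 466 and 564 CPM for ΔAgo2, a log2 fold change of 0.11 (adjusted p = 0.922, edgeR's quasi-likelihood test). Prdx4, the peroxiredoxin of the endoplasmic reticulum, was at 0.09, while Txn2 of mitochondria and Sesn3, a sestrin, were at -0.64 and -0.73 on the log2 scale (adjusted p = 0.732 and 0.709, edgeR's quasi-likelihood test). Txn2 was highest in wild-type replicate 4, where it reached 348 CPM, while wild-type replicates 1 to 3 lay between 120 and 154 CPM.

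NADPH, which feeds both GSR and TXNRD1, comes from the pentose phosphate pathway and from malic enzyme. In this list (9 of 9 tested, median -0.23, and -0.01 without wild-type replicate 4) Taldo1, transaldolase, was the only gene at an unadjusted p under 0.05. It was at 412, 136, 304.9 and 429 CPM in wild-type replicates 1 to 4 and at 143, 164, 259 and 135 CPM in ΔAgo2 replicates 1 to 4, a log2 fold change of -0.87 (adjusted p = 0.674, edgeR's quasi-likelihood test). Pgd, 6-phosphogluconate dehydrogenase, had a log2 fold change of -0.78, and it too stood highest in wild-type replicate 4, at 991 CPM, while wild-type replicates 1 to 3 lay between 307.5 and 469 CPM. Me1, malic enzyme, was level between genotypes at 0.01 on the log2 scale (adjusted p = 0.993, edgeR's quasi-likelihood test) and had a range of 55.2 to 109.7 CPM across wild-type libraries and of 78.4 to 88.4 CPM across ΔAgo2 libraries.

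Of the genes for quinone, aldehyde and xenobiotic detoxification (17 of 22 tested, median -0.23, and -0.295 without wild-type replicate 4), the unadjusted p was under 0.05 for 1 gene above and 3 genes below 0. Akr1c13, an aldo-keto reductase, was near the lower end of what was counted, with 0.104 to 0.217 CPM across wild-type and 0.343 to 0.733 CPM across ΔAgo2 libraries and no overlap, with at most 45 counts in a library and close relatives in the same gene cluster. Its log2 fold change of 1.98 (standard error 0.46) had an adjusted p of 0.180 with edgeR's quasi-likelihood test and of 0.0102 with DESeq2. Ephx1, microsomal epoxide hydrolase, was at 49.3, 29.8, 173 and 152.5 CPM in wild-type replicates 1 to 4 and at 44.1, 48.4, 42.7 and 27.8 CPM in ΔAgo2 replicates 1 to 4, so wild-type replicates 3 and 4 stood above the other 6 libraries, with a log2 fold change of -1.31 (adjusted p = 0.6025, edgeR's quasi-likelihood test). Akr7a5, an aldehyde reductase with 62.5% GC, was at 103 CPM in wild-type replicate 4 and at 10.3 to 16.6 CPM in the other 7 libraries, and its log2 fold change of -1.55 became -0.30 without that library. Osgin1, an oxidative stress response gene named after its values were seen, had a log2 fold change of -1.04, and -0.55 without wild-type replicate 4. Ugdh, which makes the UDP-glucuronate used for conjugation, had the smallest p among the other higher genes, with a log2 fold change of 0.41 (adjusted p = 0.758, edgeR's quasi-likelihood test).

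Heme and iron genes (11 of 11 tested, median -0.20, and -0.01 without wild-type replicate 4) had 0 genes at an unadjusted p under 0.05. Blvrb, a biliverdin reductase downstream of HMOX1, was at 169, 22.8, 150.1 and 105.5 CPM in wild-type replicates 1 to 4 and at 32.3, 37.1, 83.2 and 38.9 CPM in ΔAgo2 replicates 1 to 4, a log2 fold change of -1.22 (adjusted p = 0.678, edgeR's quasi-likelihood test). Ftl1, the ferritin light chain, was at 3108, 796, 4195 and 3660 CPM in wild-type replicates 1 to 4 and at 1110, 1340, 2259 and 912 CPM in ΔAgo2 replicates 1 to 4, a log2 fold change of -1.06 (adjusted p = 0.681). As for the target genes, ΔAgo2 replicate 3 was the highest ΔAgo2 library for both. Tfrc, the transferrin receptor, and Slc40a1, the iron exporter ferroportin, had log2 fold changes of 0.54 and 0.58 (adjusted p = 0.837 and 0.895, edgeR's quasi-likelihood test). Tfrc was at 1.16 without wild-type replicate 2, and Slc40a1 at 1.74 without wild-type replicate 3. Of the superoxide dismutases and catalase (5 of 5 tested, all below 0, median -0.47, and -0.03 without wild-type replicate 4), 0 reached an unadjusted p under 0.05, with Ccs at -0.60 and Sod2 at -0.32 leading by p (adjusted p = 0.740 and 0.760, edgeR's quasi-likelihood test).

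The library pattern described above was also counted in these lists, without a test, because its features were chosen after the values were seen. ΔAgo2 replicate 3 was the highest ΔAgo2 library for 50 of the 103 list genes, beside 30.2% of all genes. It was over 1.5 times the next for 8 of them, Prdx6, Taldo1, Cbr3, Esd, Blvrb, Ftl1, Slc48a1 and Cat, beside 3.56% of all genes. Wild-type replicates 1 and 3 and ΔAgo2 replicate 3 were the 3 highest libraries for 9 of the 103, close to the 7.33% of all genes.

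**Figure D5:**
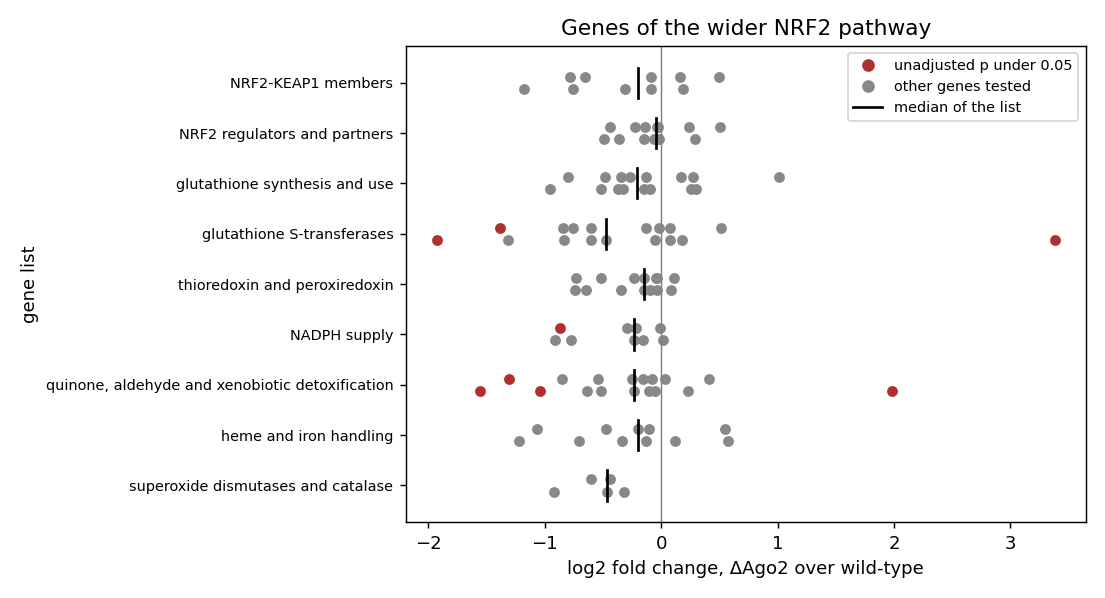
Log2 fold change, ΔAgo2 over wild-type, of the 10 genes and of the 103 tested genes of the 8 lists, 1 point for each gene, with the median of each list as a black bar and genes at an unadjusted p under 0.05 in red. The medians lie between -0.48 for glutathione S-transferases and -0.05 for regulators, 0 of the points passed the adjusted threshold, and Gstk1 lies farthest out at 3.38.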

How the data were processed

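RNA-seq of 8 libraries, 4 wild-type and 4 ΔAgo2, was read from the authors' tables of 55487 genes. The authors made libraries with a stranded mRNA kit, sequenced them paired-end, aligned reads to ribosomal RNA and then to mm10 (STAR is listed in the submitters' processing notes), and deposited whole-number counts from featureCounts, without normalization, together with TPM values, which are scaled to gene length and library total. The annotation release and strand setting are not given in the sources used here. Counts were tested as deposited, and the deposited TPM values served for levels between genes, ratios and an alternative fit.

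Genes were filtered with filterByExpr, scaled with TMM factors and put through the quasi-likelihood test of edgeR 4.0.16 in R 4.3.3. The test was two-sided with genotype as the sole term, and p-values were adjusted by Benjamini-Hochberg over the 14228 genes tested. The standard error is the estimate over the root of F. Log2 CPM used a pseudocount of 0.5. Alternatives were DESeq2 1.42.0, limma 3.58.1 with sample weights or on log2(TPM + 1) and log2(TPM + 0.1), other scaling and filters, a replicate block, a correction for GC content with and without the block, and each library left out in turn. A fit with ΔAgo2 replicates 1 and 2 summed was added after the data were seen.

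The members and lists were chosen with earlier results of these data known. Named are the 10 genes, Ago2, Slc3a2 and, in each list, genes with an adjusted p under 0.05 and the 2 with the smallest p in each direction. Positions, GC content and overlaps come from the GENCODE annotation of GRCm38, promoter windows from RefSeq, GRCm38.p6. Labels give same-numbered libraries in both genotypes but no shared culture. 93 identifiers had no symbol. Skp1 was matched through a RefSeq synonym.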

Additional observations from a re-analysis of the deposited data

Results flagged for a closer look

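In groups of 4 libraries, a library was marked when its gap to the nearest other, divided by the range of log2 CPM, exceeded Dixon's critical value at the 95% level. Over the 78 groups examined chance gives about 1 in 20, and 6 were marked. Within ΔAgo2 cells, replicate 3 was far above the others for Gclc (172 CPM against 85.2 to 95.5, gap 0.838 of the range) and for Srxn1 (548 against 202 to 220.0 CPM, gap 0.917). In the same library Cul1 lay far below the others, at 156 against 185.0 to 189.6 CPM (gap 0.873). Within wild-type cells, replicate 4 was far above the others for Gpx4 (901 against 142 to 178.5 CPM, gap 0.877) and Akr7a5 (103 against 14.6 to 16.6 CPM, gap 0.937), and far below them for Ugdh (61.7 against 123 to 139 CPM, gap 0.851).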

How the results depend on the processing

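The count of changed genes among the 10, 0, was the same under all 20 alternatives, and 18 of the 20 gave 0 list genes. DESeq2 called 2 list genes (Gstk1 at 3.41, Akr1c13 at 2.03) and the fit without a filter 1 (Gstk1 at 3.39). Over all genes, where 42 were called (11 higher, 31 lower), DESeq2 called 399 of 27620 genes, no filter 143, a mean CPM of at least 1 gave 5, sample weights 257, limma on log2(TPM + 1) 15 (8 higher, 7 lower), the GC correction 71 (27 higher, 44 lower) and the 2 summed ΔAgo2 libraries 7. The fit on log2(TPM + 0.1) gave 17 higher and 21 lower. Leaving out 1 library gave 1 to 113: 12 without wild-type replicate 1, 78 without replicate 2, 113 without replicate 4, 1 without ΔAgo2 replicate 1 and 7 without each of the other ΔAgo2 replicates. The causes of these shifts were not tested.

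With the replicate block 18 genes were called, and 65 with the GC correction and the block. Same-numbered libraries share only a number: their deviations correlated at -0.165, -0.077, 0.403 and -0.001 for numbers 1 to 4, and wild-type replicate 1 correlated best with ΔAgo2 replicate 3 (0.528). With the replicate block Gclc turned to 0.066 and Hmox1 reached an unadjusted p of 0.0433 (adjusted p = 0.827, edgeR). Other unadjusted p under 0.05 among the 10 genes, all from edgeR, were those of Hmox1 without a filter (0.035), without wild-type replicate 2 (0.0304) and without ΔAgo2 replicate 3 (0.0325), of Gclm with the GC correction (0.0471), and of Gclm (0.0156) and Nqo1 (0.0357) with that correction and the block. The share of all genes at that threshold was not counted in these fits, nor with the replicate block. These unadjusted p-values thus have no background here. With the GC correction and block Keap1 was at 0.17, Txn1 at -0.035, Prdx4 at -0.05 and Me1 at -0.18.

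On log2(TPM + 1) and log2(TPM + 0.1) the median over all genes moved to 0.15 and 0.22, and Nfe2l2 (0.171, 0.172), Keap1 (0.113, 0.117), Gclc (0.283, 0.292) and Txnrd1 (0.030, 0.033) turned positive. Relative to the median these are 0.02 and -0.05 for Nfe2l2, -0.04 and -0.11 for Keap1, 0.13 and 0.07 for Gclc, and -0.12 and -0.19 for Txnrd1. Sample weights turned Keap1 to 0.279, Slc7a11 to -0.508, Srxn1 to -0.515, Gsr to -0.186, Gpx8 to -0.181, Mgst3 to 0.032, Txn1 to -0.042, Prdx4 to -0.145 and Me1 to -0.00345. The GC correction turned Keap1 to 0.133, Txn1 to -0.039, Prdx4 to -0.166, Me1 to -0.287 and the Nfe2l2 to Keap1 ratio to -0.376. DESeq2's size factors in edgeR turned Me1 to -0.000363, and the summed libraries turned Gclc to 0.000202. Leaving out 1 library at a time gave log2 fold changes from -0.243 to 0.087 for Nfe2l2, -0.533 to 0.274 for Keap1, -0.394 to 0.29 for Gclc, -1.08 to 0.036 for Gclm, -1.03 to 0.218 for Txnrd1, -0.303 to 0.818 for Srxn1, -9.26e-05 to 0.261 for Gsr, -1.238 to 0.135 for Gpx4, -0.091 to 0.287 for Prdx4 and -0.149 to 0.193 for Me1, and a difference of the Nfe2l2 to Keap1 ratio from -0.545 to 0.492. Nqo1 and Hmox1 stayed below 0 in every alternative run, from -1.34 to -0.42 and from -1.63 to -0.32.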
